A study of Mus musculus with 36 samples.

Results

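Bone marrow stem and multipotent progenitor cells (HSC/MPP) were set against the more mature LK progenitors of the same control mice, using 8 of the 36 libraries of the series. The members were chosen by their labels: the 4 control HSC/MPP libraries and the 4 control LK libraries, 1 of each per mouse. The series has 9 groups of 4 libraries, and leukaemia was its other arm. All mice carried Kmt2a-AFF1+, the fusion gene of a translocation found in infant leukaemia that joins a chromatin regulator to an elongation factor, and the control mice also overexpressed miR-scramble, a microRNA vector with no designed target, so the controls are not wild type. HSC/MPP were sorted by FACS as Lin- c-Kit+ Sca-1+ Flt3-, and LK, labelled LK/CLP, as Lin- c-Kit+ Sca-1-. The third control population, LMPP (lymphoid-primed progenitors, Lin- c-Kit+ Sca-1+ Flt3+, 4 libraries of the same mice), served as a reference level. The leukaemia mice overexpressed miR-130b (miR-130a in the design text) on Kmt2a-AFF1+, and their marrow gave 4 HSC/MPP and 4 LK libraries, with no mouse giving both. The labels number 4 control mice, while the design text speaks of a single control mouse, so the p-values measure the spread between these samples. The sources used here do not give age or the promoter of the fusion.

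Haematopoietic stem cells divide rarely, and the multipotent progenitors they give rise to feed the whole blood system. LK progenitors stand further down: they hold the common myeloid, granulocyte-macrophage and megakaryocyte-erythroid progenitors, which cycle rapidly, raise ribosome number and metabolism, and start the granule and erythroid programmes. Transcription factors such as Hlf and Mecom maintain the stem cell state, while Cebpa opens the granulocyte path and Klf1 the erythroid path.

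The libraries of the populations differed in more than cell type. Total counts were 3.55 to 8.83 M in HSC/MPP and 10.9 to 21.6 M in LK (M, 1e+06 counts). Sensory receptor genes, which blood cells are not known to use, were read at 2.56 ± 0.25 (SD, n = 4) CPM (counts per 1e+06) per kilobase in HSC/MPP and 0.690 ± 0.21 (SD, n = 4) in LK, and at this uniform rate such background would make up 19.7 to 26.3% of the HSC/MPP counts and 6.12 to 11.7% of the LK counts. A single predicted gene, Gm10800, took 18.7 to 23.4% of the HSC/MPP counts and 3.01 to 8.53% of the LK counts, and genes of the mitochondrial genome took 1.37 to 1.91% against 4.54 to 5.15%. Over 1480 sensory receptor genes the log2 ratio of HSC/MPP to LK had a median of 1.90, with 1.36 and 2.48 as the 5th and 95th percentiles, so a rise of that size in a gene of low level cannot be told apart from the difference in background. A gene was therefore tested only if it stood above 3 times the background plus 10 counts in at least 4 of the 12 control libraries, which left 11954 genes. A gene could pass through HSC/MPP and LMPP libraries alone, and for such a gene a rise over LK was largely set by the filter. The correlation of log2 CPM over the 11954 genes was 0.942 to 0.970 within HSC/MPP, 0.977 to 0.986 within LK and 0.687 to 0.824 between them.

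The comparison asks which genes separate stem and multipotent cells from committed progenitors in marrow that carries the fusion without leukaemia. Genes of the primary granules, histones, ribosomes, chaperones and respiration were lower in HSC/MPP, genes of the erythroid line were lower in part, and genes of stem cell identity and of the immunoglobulins were higher. Respiration genes, with a median log2 fold change of -1.54, fell about as far as well expressed genes in general (-1.48). With edgeR's quasi-likelihood test and Benjamini-Hochberg adjustment, 8596 of 11954 genes (71.9%) differed, 4486 higher (37.5%) and 4110 lower (34.4%) in HSC/MPP. In 36.5% of the genes tested all 4 HSC/MPP values lay above all 4 LK values, called or not, and in 34.2% all lay below. With 7 in 10 genes called, a count of calls in a list says little by itself, so each list below is set beside these shares.

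Much of this split rests on scaling. When scaling factors were computed on 467 well expressed protein-coding genes, whose median log2 fold change was -1.48 in the principal test, the log2 fold changes moved up by 1.28 at the median. The split became 9362 higher and 623 lower, and 6885 higher and 1115 lower when background was also subtracted; without the background filter they moved down by 1.56 at the median and the split was 8207 higher and 10392 lower. Genes called in the same direction under all 8 settings of filter, background, scaling and tool numbered 1147 higher (9.60%) and 606 lower (5.07%), and are called robust to setting here. All 35 sensory receptor genes that passed the filter were called higher, with a median log2 fold change of 2.34, and 26 of them were robust to setting. A stricter rule asked that all 4 HSC/MPP libraries exceed 3 times the background of the gene itself, taken as its lowest ratio to the uniform background among the 7 groups outside the comparison and at least 1, and that the call hold with background subtracted. It left 36 higher genes (0.301%), of which 8 were protein-coding with a symbol that is no predicted gene, among them Hlf, Adgrl4, Jchain, Fthl17c, Ott, Dmrtc1c1 and Dmrtc1c2. The last 4 belong to families of similar copies on the X chromosome, and the sources used here do not say how reads were divided among copies.

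**Figure D1:**
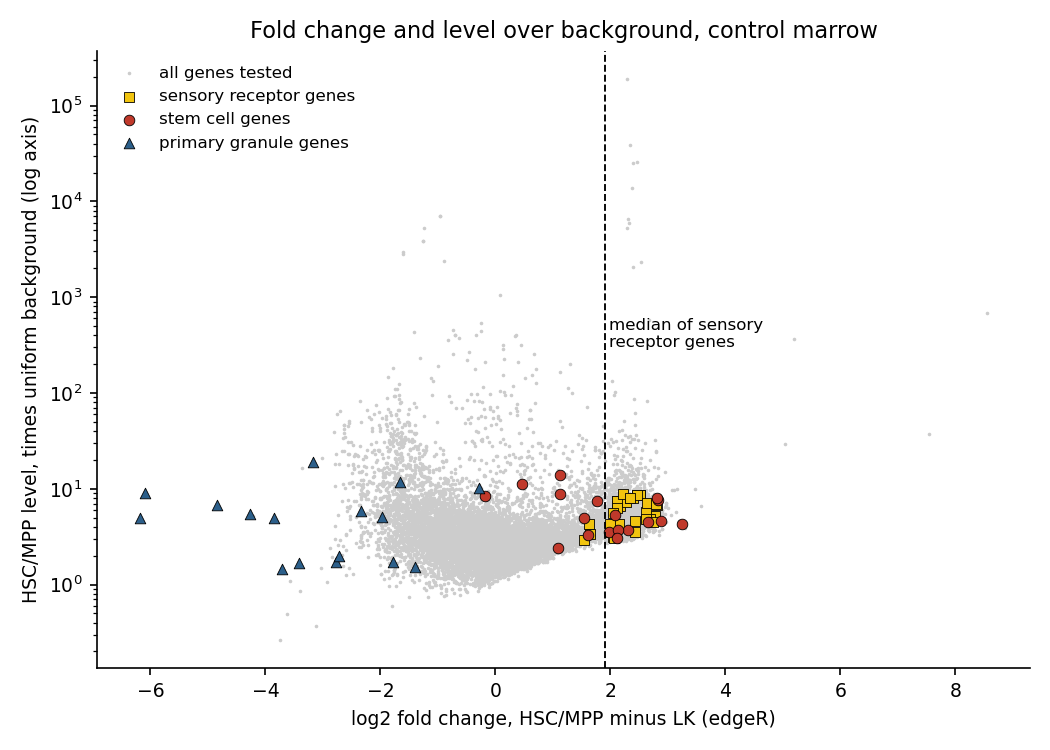
Log2 fold change of HSC/MPP minus LK (x axis) against the mean HSC/MPP level in multiples of the uniform background (y axis, log scale) for the 11954 genes tested, with sensory receptor, stem cell and primary granule genes marked. The median of the stem cell genes, 2.03, lies close to the dashed line at the sensory receptor median of 1.90, with Gata2 left of zero, and the granule genes lie to the left with a median of -2.97.

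The gate genes were also read in the RNA. Ly6a, which encodes Sca-1, the marker that separates the gates, was read at 20.8, 19.3, 22.6 and 20.2 CPM in the HSC/MPP libraries of mice 1 to 4 and at 2.13, 4.31, 3.37 and 1.99 CPM in their LK libraries. The groups did not overlap, and the log2 fold change was 2.84 ± 0.26 (SE, adjusted p = 5.65e-08 by edgeR), robust to setting. Ly6a was above background in 4 HSC/MPP libraries and 1 LK library, so its rise is not independent of the filter. It stood at 6.79 times the uniform background in HSC/MPP and never under 5.34 times in the groups outside the comparison. Ly6a did not pass the stricter rule on its own background. Kit, the stem cell factor receptor of both gates, was read at 166, 173, 191 and 160 CPM in HSC/MPP and 288, 274, 255 and 258 CPM in LK, a log2 fold change of -0.64 ± 0.16 that was no longer called with background subtracted (-0.27) and turned to 0.65 with scaling on well expressed genes. Flt3, absent from the surface of HSC/MPP by the gate, was not called (log2 fold change 0.21 ± 0.26, adjusted p = 0.465), at 42.7 to 50.3 CPM in HSC/MPP and 28.5 to 49.7 CPM in LK against 181 to 498 CPM in LMPP. Of 18 sort and lineage-gate genes 10 passed the filter, 1 rose, and 4 fell: Kit, Cd34, Cd48 and Fcgr3. Fcgr3 (CD16) and Cd34 mark myeloid progenitors and Cd48 is carried by cells past the stem cell stage. Cd48 was read at 5.65 to 15.1 CPM in HSC/MPP and 25.0 to 30.9 CPM in LK, a log2 fold change of -1.34 ± 0.23, while with scaling on well expressed genes 8 of the 10 were called higher and none lower. Cd3e, Cd4, Cd8a, Itgam and Ly6g, markers of mature cells that the Lin- gate removes, did not pass the filter.

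Stem cell genes were higher in HSC/MPP. Of 36 listed genes 18 passed the filter, 17 of the 18 rose and 1, Gata2, was not called, with a median log2 fold change of 2.03 against 0.03 over all genes tested. The same 17 were called higher with background subtracted, and 8 were robust to setting, among them Hlf, Mecom, Fgd5, Esam, Prdm16, Ltb and Nkx2-3. The median sits close to the 1.90 of the sensory receptor genes, and Hlf, Nkx2-3 and Ltb were among the members above 2.77, the 99th percentile of those genes. Some members passed the filter without any LK library. Mecom was above background in 4 HSC/MPP and 0 LK libraries, and Nkx2-3 in 3 and 0. Rises of such members were largely set by the filter, so the count of 17 is not independent of it.

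Hlf, a transcription factor of stem cells, was read at 132, 132, 135 and 122 CPM in HSC/MPP and at 20.1, 18.2, 21.1 and 13.9 CPM in LK. The groups were far apart, with a log2 fold change of 2.83 ± 0.19 (adjusted p = 3.80e-09), and LMPP stood at 94.8 to 193 CPM. In HSC/MPP Hlf was at 7.68 times the uniform background, and in the lowest of the 7 groups outside the comparison it fell to 0.702 times, so its own background is low. Mecom, the zinc finger factor also called Evi1, was read at 155, 139, 132 and 140 CPM against 16.6, 24.3, 28.7 and 20.4 CPM, a log2 fold change of 2.65 ± 0.16. In the 7 groups outside the comparison Mecom did not fall under 4.22 times the uniform background, though in control LK it stood at 2.68 times. The stricter rule took 4.22 times as the background of Mecom, which is not among the 36 genes above.

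The stem cell members tested ranged from -0.18 (Gata2) to 3.25. Nkx2-3, a homeobox factor, showed a log2 fold change of 3.25 ± 0.26, from 1.72 to 3.94 CPM in LK to 18.8 to 28.7 CPM in HSC/MPP. Ltb, the lymphotoxin beta chain, showed 2.87 ± 0.26. Mycn, a growth regulator of the Myc family, was read at 53.2, 34.6, 44.0 and 46.6 CPM in HSC/MPP against 9.70, 13.2, 9.52 and 10.1 CPM in LK. Its log2 fold change was 2.08 ± 0.25, and it was also higher than in LMPP (log2 fold change 1.19 ± 0.25, adjusted p = 0.0204). Vwf, the von Willebrand factor that marks platelet-biased stem cells, was at 123 to 152 CPM against 35.2 to 49.5 CPM, and Meis1, the partner of Hox proteins, at 115 to 158 CPM against 43.6 to 48.7 CPM. Without the background filter the direction of Meis1, Mllt3, Angpt1, Ifitm3 and Txnip turned, whereas scaling on well expressed genes raised all 18 members and called Gata2 higher as well.

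Gata2 was the member not called. This zinc finger factor, needed by stem cells and by mast and megakaryocyte progenitors, was read at 124, 105, 116 and 120 CPM in HSC/MPP and 140, 137, 117 and 132 CPM in LK, and the log2 fold change of -0.18 ± 0.12 was not called (adjusted p = 0.208), though a fit of the 8 libraries with the mouse as a block called it lower at -0.24 (adjusted p = 0.0282). In LMPP it was read at 37.0 to 49.9 CPM, and HSC/MPP exceeded LMPP by a log2 fold change of 1.37 ± 0.13 (adjusted p = 1.32e-05).

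**Figure D2:**
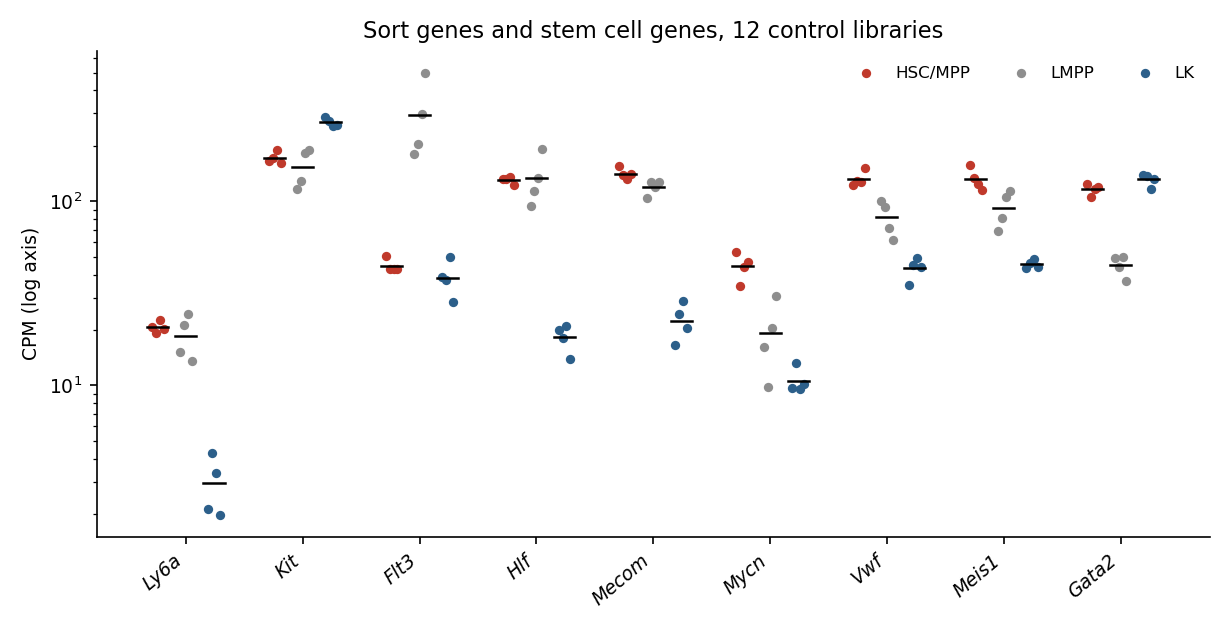
CPM (log axis) of the sort genes Ly6a, Kit and Flt3 and of 6 stem cell genes in the 12 control libraries, 1 point per library and a bar at the mean of each group of 4. Ly6a, Hlf and Mecom stand apart in LK, Flt3 is high in LMPP only, and Gata2 is low in LMPP only.

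Primary granule genes gave the largest falls of the comparison. These genes encode the enzymes that promyelocytes pack into azurophil granules, and 15 of 16 members fell while none rose, with a median log2 fold change of -2.97. The direction of 13 of them was robust to setting, and their summed level was 433 to 551 CPM in HSC/MPP and 8388 to 10874 CPM in LK. Mpo, myeloperoxidase, was read at 65.7, 77.6, 90.2 and 80 CPM in HSC/MPP and at 6241, 5606, 4753 and 4701 CPM in LK. The groups differed by a log2 fold change of -6.09 ± 0.26 (adjusted p = 4.07e-11). Elane, neutrophil elastase, was read at 10.1, 7.29, 22.2 and 8.00 CPM against 1042, 1040, 737 and 746 CPM, a log2 fold change of -6.19 ± 0.33. Both lie far outside the spread of any group.

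The other serine proteases moved alike. Ctsg, cathepsin G, showed a log2 fold change of -4.83 ± 0.25 and Prtn3, proteinase 3, -4.27 ± 0.17. Ms4a3, which marks granulocyte-monocyte progenitors, was read at 7.29 to 8.84 CPM in HSC/MPP and 82.4 to 95 CPM in LK. Levels in LMPP stood close to HSC/MPP for these genes: Mpo at 74.0 to 118 CPM, with a log2 fold change of HSC/MPP minus LMPP of -0.23 ± 0.22 (adjusted p = 0.627). Plac8, a cysteine-rich protein of myeloid progenitors, differed between the Sca-1 positive gates as well, at 14.1 to 25.2 CPM in HSC/MPP and 36.1 to 89.3 CPM in LMPP against 263 to 313 CPM in LK. Lyz2, lysozyme, was the member not called, at -0.28 ± 0.13 (adjusted p = 0.0627); it was called at -0.35 in the 8 libraries with the mouse as a block, and turned to 0.99 with scaling on well expressed genes. Other genes among the 15 largest falls were Cst7, an inhibitor of cysteine proteases, at -3.71 ± 0.20, Calr, the endoplasmic reticulum chaperone calreticulin, at -3.17 ± 0.22, Ap3s1, a subunit of the adaptor complex for lysosome-related organelles, at -3.58 ± 0.18, Clec12a, an inhibitory lectin receptor, at -2.92 ± 0.16, and Rab44, a GTPase of granulocyte and mast cell lineages, at -2.88 ± 0.19. Ap3s1 and Clec12a were at 1.09 and 1.07 times the uniform background in HSC/MPP, above it in 0 of 4 libraries. With background subtracted the log2 fold change was -5.78 for Ap3s1, -5.36 for Clec12a, -4.95 for Cst7 and -4.19 for Ms4a3.

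Genes of the neighbouring myeloid lines were mixed. Among monocyte and dendritic genes 5 of 14 tested fell and 5 rose. F13a1, coagulation factor XIII A of monocytes, fell by 2.65 on the log2 scale (SE 0.20), and Ly6c2, the monocyte surface antigen Ly6C, by 2.61 (SE 0.15); both were robust to setting. Among mast cell, basophil and eosinophil genes 4 of 12 tested fell and 2 rose, and Cpa3, the mast cell carboxypeptidase, was at 4.19 to 10.4 CPM against 19.4 to 30.4 CPM. Late granule genes of maturing neutrophils moved the other way: 7 of 9 tested rose, with a median of 1.57, among them Ltf, lactoferrin, at 2.21 ± 0.20 and Ngp, the neutrophilic granule protein, at 2.19 ± 0.32. Ltf and Ngp stood at 3.83 and 6.12 times the uniform background in HSC/MPP and never below 3.27 and 5.76 times in the groups outside the comparison. Of this list, 0 members passed the stricter rule on their own background. The rises of Ltf and Ngp lie within the 1.36 to 2.48 range of the sensory receptor ratios. They cannot be told apart from the difference in background.

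Among lineage transcription factors 21 of 34 tested fell and 5 rose, with a median of -0.56, and with scaling on well expressed genes 21 were called higher and 4 lower. The 4 robust falls were Cebpa, Klf1, Irf8 and Myb. Cebpa, the factor that commits progenitors to granulocytes, was read at 9.02, 11.1, 13.1 and 6.12 CPM in HSC/MPP and 97.9, 89.3, 70.4 and 77.6 CPM in LK, a log2 fold change of -3.03 ± 0.20 (adjusted p = 3.32e-09). In HSC/MPP that level was 1.48 times the uniform background, and the log2 fold change was -4.001 with background subtracted. Irf8, the factor of monocytes and dendritic cells, was at 31.6 to 51.3 CPM against 116 to 165 CPM, and Myb, a factor of cycling progenitors and a target of Kmt2a fusions, at 134 to 179 CPM against 534 to 659 CPM. Myc fell by 1.48 (SE 0.21) and Tcf3, the E protein of lymphoid development, by 1.44 (SE 0.16). Spi1 (PU.1, -0.99 ± 0.15) and Gata1 (-0.94 ± 0.20) fell in the principal test, and both were higher, at 0.30 and 0.34, with scaling on well expressed genes. The rises were Mycn, Klf4, Erg, Ikzf2 and Tcf7. Klf4, a quiescence-linked zinc finger factor, was at 23.7 to 55.7 CPM against 9.38 to 11.2 CPM, and Erg, an Ets factor of stem cells, showed 0.70 ± 0.19 with its direction turned without the background filter. Nfe2, the p45 factor of megakaryocytes and erythroid cells, was not called at -0.03 ± 0.15.

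Erythroid genes were lower in part. Of 28 tested, 15 fell and 4 rose with a median of -0.51, 7 falls and 1 rise were robust to setting, and with scaling on well expressed genes the counts became 7 lower and 15 higher. Car1, carbonic anhydrase 1, one of the earliest genes of committed erythroid progenitors, was read at 21.3, 19.3, 14.2 and 12.7 CPM in HSC/MPP and 308, 314, 277 and 381 CPM in LK. The log2 fold change was -4.21 ± 0.21 (adjusted p = 2.24e-10), and LMPP was lower still, at 4.11 to 9.23 CPM. Klf1, the erythroid Krüppel-like factor, was read at 10.6, 7.47, 8.73 and 12.7 CPM against 68.1, 52.8, 51.2 and 67.7 CPM, and fell by 2.65 (SE 0.19). Its known targets include genes with a CACCC box in the promoter, and Gata1 binds the GATA motif.

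The promoters of the 4 erythroid members with the smallest p after Car1 are printed to show whether these letters occur in them. They are the 250 bases before a start of the gene in RefSeq, build GRCm38.p6, 5′ to 3′ on the strand of the gene, with capitals for a match. The motif of Gata1 was searched as AGATAA and also in the form TGATAA, and the CACCC box as CCACACCC, as CCGCACCC and as CCACGCCC, all on both strands. Ermap, an erythrocyte membrane protein, lies at chr4:119189996-119190245 on the minus strand. Tfrc, the transferrin receptor that brings in iron, lies at chr16:32608646-32608895 on the plus strand. Aqp1, the water channel of red cells, lies at chr6:55336049-55336298 on the plus strand, and Tmem14c, a mitochondrial carrier of haem precursors, at chr13:41016000-41016249 on the plus strand.
Ermap: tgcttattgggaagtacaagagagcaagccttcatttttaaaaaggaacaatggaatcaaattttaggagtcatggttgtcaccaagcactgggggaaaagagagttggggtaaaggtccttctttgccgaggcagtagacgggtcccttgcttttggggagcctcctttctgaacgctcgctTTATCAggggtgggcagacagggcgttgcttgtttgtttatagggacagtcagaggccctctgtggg
Tfrc: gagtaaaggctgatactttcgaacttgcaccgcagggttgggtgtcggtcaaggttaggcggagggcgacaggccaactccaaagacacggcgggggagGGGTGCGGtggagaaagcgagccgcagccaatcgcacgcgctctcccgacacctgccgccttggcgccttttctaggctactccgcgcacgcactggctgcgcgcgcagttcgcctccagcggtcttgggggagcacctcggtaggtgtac
Aqp1: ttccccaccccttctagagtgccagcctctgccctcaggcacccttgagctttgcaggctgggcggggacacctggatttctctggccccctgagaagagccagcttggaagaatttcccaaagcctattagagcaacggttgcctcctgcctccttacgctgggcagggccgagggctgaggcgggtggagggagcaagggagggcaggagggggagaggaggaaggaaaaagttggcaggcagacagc
Tmem14c: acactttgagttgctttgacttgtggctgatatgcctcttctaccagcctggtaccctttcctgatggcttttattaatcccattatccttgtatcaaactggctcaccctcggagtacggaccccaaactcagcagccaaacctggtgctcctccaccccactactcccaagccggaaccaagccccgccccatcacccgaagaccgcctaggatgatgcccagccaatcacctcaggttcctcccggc
The capitals in Ermap are TGATAA read from the opposite strand, 67 bases before the start. Those in Tfrc are CCGCACCC read from the opposite strand, 151 bases before the start. Tfrc has another start in RefSeq, and the promoter there held neither motif. Aqp1 and Tmem14c hold neither in this window. For each of these 2 genes the bases shortly after the start used were found in 0 of 1 annotated transcripts, so that start is less certain. A GATA match occurred in 7 of the 15 promoters (46.7%) of the 12 falling erythroid genes found in the table, and in 18.6% of all 32851 promoters of 300 bases (250 before to 50 after the start). Of the erythroid genes that did not fall, 2 of 3 promoters of members that rose (66.7%) and 2 of 5 of members not called (40%) also held a GATA match. A CACCC match occurred in 3 of the 15 (20%) and in 10.2% of all. A match is a run of letters and does not show binding.

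The 4 genes with printed promoters moved together. Ermap was read at 32.9, 33.4, 29.8 and 38.1 CPM in HSC/MPP and 193, 155, 148 and 192 CPM in LK, a log2 fold change of -2.37 ± 0.14. Tfrc was read at 27.9, 21.1, 25.1 and 20.2 CPM against 151, 117, 146 and 143 CPM, -2.54 ± 0.17. Aqp1 was read at 24.3 to 27.5 CPM against 118 to 162 CPM, and Tmem14c at 7.80 to 12.2 CPM against 50.9 to 55.7 CPM. In each the lowest LK library was more than 3 times the highest HSC/MPP library, whichever motif the promoter held. Aqp1, like Car1, was higher in HSC/MPP than in LMPP (log2 fold change 1.19 ± 0.17, adjusted p = 0.000744).

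**Figure D3:**
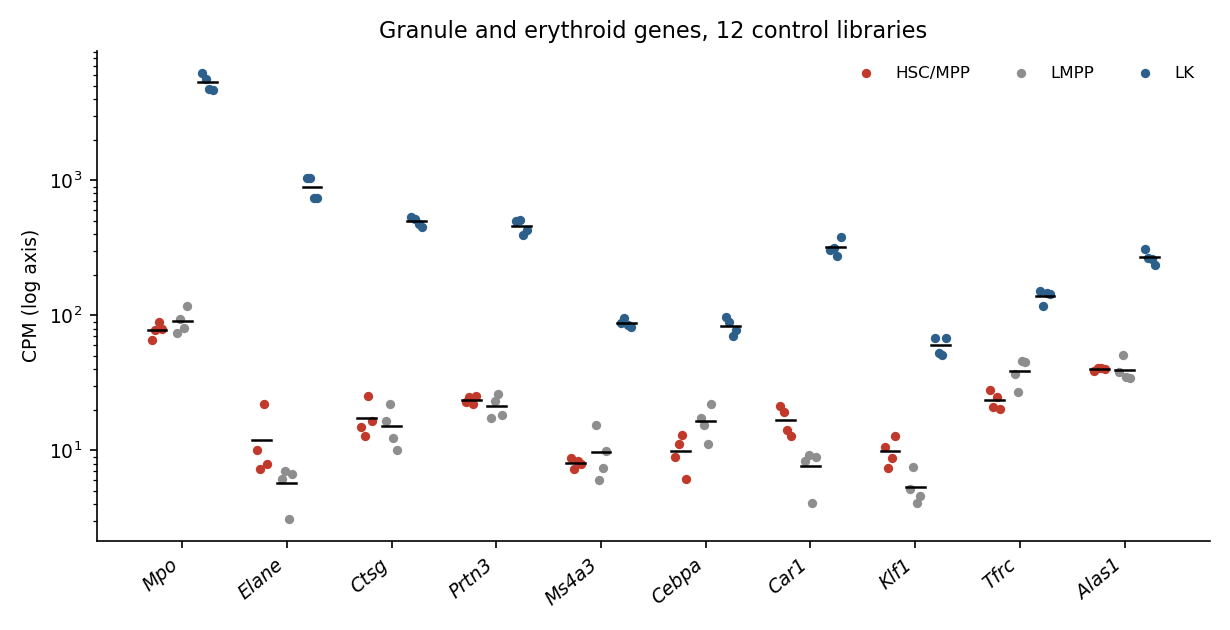
CPM (log axis) of 6 granule-line and 4 erythroid or haem genes in the 12 control libraries, 1 point per library and a bar at each group mean. LK stands about 10-fold or more above HSC/MPP for Mpo, Elane, Ctsg, Prtn3 and Car1, and LMPP is near HSC/MPP for Mpo, Ctsg and Prtn3 and below it for Car1.

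Hbb-bs and Slc4a1 were among the 4 erythroid members that rose. Hbb-bs, a beta globin, was at 5.51 to 11.1 CPM in HSC/MPP and 3.52 to 5.36 CPM in LK, and at 20.6 to 40.1 CPM in LMPP; its neighbour Hbb-bt is a near-identical copy, and its direction turned without the background filter. Slc4a1, the band 3 anion exchanger, showed 2.07 ± 0.22 at 3.30 times the uniform background. Epor, the erythropoietin receptor, fell by 0.77 (SE 0.25) and rose by 0.51 with scaling on well expressed genes. Of 12 haem synthesis genes 6 fell and 1 rose. Alas1, the housekeeping form of the first enzyme of the pathway, was read at 39.0, 41.0, 41.0 and 40 CPM in HSC/MPP and 310, 266, 262 and 238 CPM in LK, with a log2 fold change of -2.74 ± 0.15 that was robust to setting. Cpox, coproporphyrinogen oxidase, showed -1.59 ± 0.16.

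Of 15 megakaryocyte and platelet genes tested, 9 rose and 1 fell, with a median of 1.02, and 2 rises, Tubb1 among them, were robust to setting. The median lies under the 1.36 that marks the 5th percentile of the sensory receptor ratios. Of the 22 listed, 10 were above background in no HSC/MPP library. The stricter rule on own background was passed by 1 member, and Tubb1 did not pass it. Tubb1, the beta tubulin of platelets, was at 11.6 to 17.9 CPM against 1.83 to 2.79 CPM. Itga2b, integrin alpha IIb, was read at 67.8, 62.1, 64.9 and 65.9 CPM against 38.5, 44.1, 39.3 and 43.9 CPM, and was also above LMPP (log2 fold change 0.93 ± 0.14, adjusted p = 0.00103), though its direction against LK turned without the background filter.

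Genes of DNA replication and division were lower in HSC/MPP. Replication-dependent histone genes, expressed in S phase to package new DNA, fell in 38 of 38 tested with a median of -2.53, and 37 of these were robust to setting. Their messages lack a poly(A) tail, and the total RNA libraries can hold them. Hist1h1b, a linker histone, was read at 32.6, 33.2, 32.1 and 27.8 CPM in HSC/MPP and 329, 325, 290 and 362 CPM in LK, and at 29.2 to 107 CPM in LMPP. Its log2 fold change was -3.37 ± 0.27 against LK and -1.18 ± 0.26 against LMPP (adjusted p = 0.0246). Hist1h1a showed -3.01 ± 0.26, Hist1h4d -2.45 ± 0.22, and Hist2h4, at the weak end, -1.66 ± 0.17. Histone genes of 1 class are close copies of each other, so values of single members are less certain than those of the family.

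S phase genes fell in 30 of 33 and rose in 1, with a median of -1.19, and mitosis genes fell in 29 of 34 with none rising and a median of -0.89. Both medians were weaker than the -1.48 of the well expressed genes. With scaling on those genes the S phase list held 12 lower and 10 higher members and the mitosis list 5 lower and 16 higher. The robust falls, 12 and 5, included Mcm5 and Mcm7, subunits of the replicative helicase, Rrm2, the limiting subunit of ribonucleotide reductase, Dut, the dUTPase, Mki67, Top2a and Ccna2. Mki67, the Ki-67 antigen of cycling cells, was read at 245, 168, 215 and 178 CPM against 951, 895, 905 and 985 CPM, -2.21 ± 0.25. LMPP ranged from 193 to 560 CPM. Rrm2 was read at 16.5, 17.1, 17.5 and 18.4 CPM against 84.8, 69.6, 91.4 and 101 CPM, -2.33 ± 0.15. Top2a, topoisomerase II alpha, was lower than in LK (-1.99 ± 0.18) and than in LMPP (-0.997 ± 0.17, adjusted p = 0.00495). Cdk6, the kinase of the G1 step and a target of Kmt2a fusions, was read at 189, 196, 201 and 154 CPM against 814, 757, 751 and 772 CPM, -2.06 ± 0.23, robust to setting.

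Inhibitors of the cell cycle did not mirror this. Of 15 cell cycle inhibitor and quiescence genes tested, 4 rose, 4 fell and 7 were not called. Cdkn1b (p27) was at 32.9 to 40.9 CPM against 29.0 to 37.0 CPM, 0.14 ± 0.14, Ccnd1 (cyclin D1) showed 0.87 ± 0.18, and Ccng1 (cyclin G1) -1.30 ± 0.14. Cdkn1c (p57), a marker of dormant stem cells, did not pass the filter.

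The genes of translation and protein folding were lower in HSC/MPP in the principal test. Well expressed genes had a median log2 fold change of -1.48 there, so a fall near that size is not particular to a family. All 43 ribosomal protein genes tested fell, with a median of -1.73 and a range of -2.19 to -1.18; 39 were still called lower with scaling on well expressed genes and none higher. Rpl8 was read at 215, 190, 198 and 168 CPM against 989, 853, 797 and 892 CPM, -2.19 ± 0.22, and Rps2 showed -2.15 ± 0.21. The family has many processed pseudogenes that share its reads. Ribosome biogenesis genes fell in 33 of 35 with 1 rise and a median of -1.09, though with scaling on well expressed genes 7 were lower and 14 higher. The robust members included Nhp2, of the complex that modifies ribosomal RNA (-2.53 ± 0.20), Nolc1, its nucleolar chaperone (-2.03 ± 0.14), and the nucleolar proteins Ncl (-2.30 ± 0.23) and Npm1 (-2.23 ± 0.21).

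Heat shock chaperone genes fell in 16 of 19 and rose in 1, with a median of -1.89 and 11 robust falls; scaling on well expressed genes gave 11 lower and 6 higher. Hspd1, the mitochondrial chaperonin, was read at 53.9, 51.8, 48.4 and 52.7 CPM against 310, 295, 294 and 329 CPM, -2.57 ± 0.18. Hspa5, the chaperone BiP of the endoplasmic reticulum, fell by 2.37 (SE 0.19) and Hsp90aa1 by 2.30 (SE 0.20).

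Respiratory genes encoded in the nucleus were lower in all 42 tested, with a median of -1.54, close to the -1.48 of the well expressed genes. With scaling on those genes 13 were called lower and 5 higher. Atp5b, the catalytic subunit of ATP synthase, was read at 106, 111, 101 and 96.9 CPM against 568, 494, 505 and 531 CPM, -2.34 ± 0.20. Ndufa4 showed -2.04 ± 0.17 and cytochrome c, Cycs, -1.65 ± 0.11. The 13 genes of the mitochondrial genome were not uniform: 6 fell, 2 rose and 5 were not called, with a median of -0.34. Among them mt-Atp8 fell by 1.72 (SE 0.19), mt-Co1 by 0.64 (SE 0.18, turned to 0.65 with scaling on well expressed genes), and mt-Nd2 rose by 0.68 (SE 0.19, turned without the background filter). Of 24 glycolysis and hypoxia genes 14 fell and 5 rose; with scaling on well expressed genes 4 were lower and 14 higher. Pgam1, phosphoglycerate mutase, was the steepest, at 28.7 to 42.7 CPM against 169 to 206 CPM (-2.53 ± 0.16), followed among named members by Eno1, enolase (-1.74 ± 0.15), and Gapdh (-1.49 ± 0.15). Slc2a1, the glucose transporter GLUT1, moved the other way at 1.40 ± 0.20, and turned without the background filter.

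**Figure D4:**
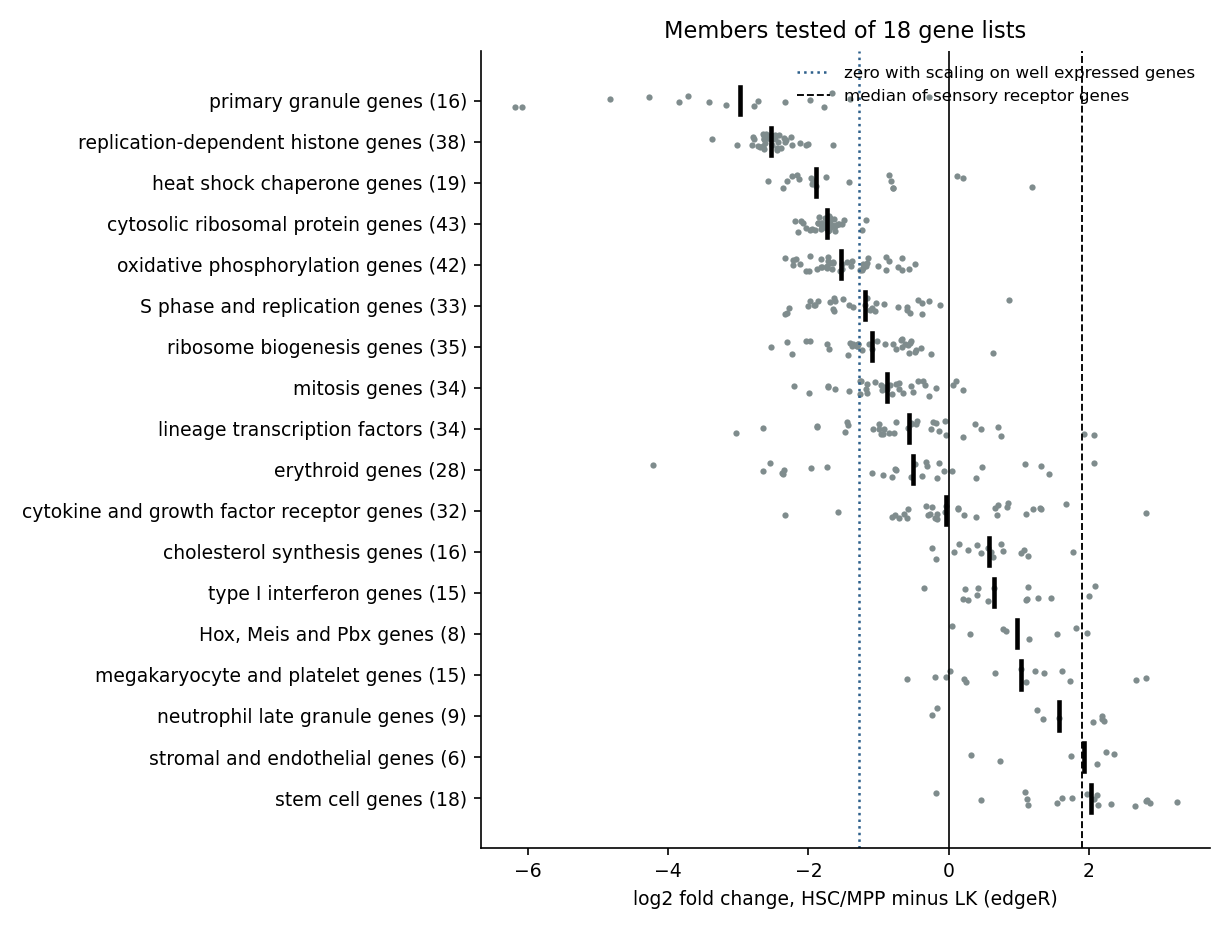
Log2 fold change of HSC/MPP minus LK (x axis) of each tested member (points) of 18 gene lists, with the list median as a bar. The dotted line, at the negative of the scaling shift of 1.28, is where zero lies with scaling on well expressed genes, and the dashed line is the sensory receptor median of 1.90. The medians of the granule, histone and ribosomal protein genes lie left of the dotted line, and the median of the stem cell genes lies next to the dashed line.

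Fusion targets split. Of 8 Hox, Meis and Pbx genes tested 7 rose with a median of 0.98, while of 15 Kmt2a fusion targets outside Hox 3 rose and 8 fell. Kmt2a fusions keep the Hoxa cluster active, and Hoxa9 was at 37.2 to 58.9 CPM in HSC/MPP and 28.4 to 31.0 CPM in LK, 0.81 ± 0.20. Hoxa10 showed 1.14 ± 0.24, and both turned without the background filter. Hoxb7 showed 1.98 ± 0.28. None of the 8 was robust to setting. Among the targets outside Hox the robust members were Mecom, which rose, and Cdk6 and Myb, which fell, and with scaling on well expressed genes 11 of the 15 were called higher and 2 lower.

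Receptor genes fell and rose in similar numbers: of 32 cytokine and growth factor receptor genes tested 11 rose and 8 fell with a median of -0.05, and scaling on well expressed genes gave 28 higher and 1 lower. Of the rises 1 was robust to setting, and of the falls 1, Ifngr1. Ifngr1, the ligand-binding chain of the interferon gamma receptor, was read at 33.3, 28.2, 30.8 and 27.3 CPM against 162, 156, 145 and 145 CPM, -2.33 ± 0.13. Cxcr4, the receptor of the niche chemokine Cxcl12, was at 14.0 to 18.2 CPM against 47.2 to 49.1 CPM, and was also below LMPP (log2 fold change -0.78 ± 0.18, adjusted p = 0.0344). Il1r1, an interleukin 1 receptor, showed 1.30 ± 0.17 and Tgfbr2, a receptor of TGF-beta, 0.85 ± 0.14; both turned without the background filter.

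Type I interferon genes rose in 10 of 15 tested and fell in none, with a median of 0.64, and 1, Oasl2, was robust to setting. Oasl2, of the oligoadenylate synthetase family, was read at 51.1, 41.4, 45.8 and 54.6 CPM against 8.57, 13.2, 14.3 and 9.49 CPM, 2.08 ± 0.16, at 2.98 times the uniform background in HSC/MPP. Ifit3, an antiviral effector, showed 2.00 ± 0.41. Cholesterol synthesis genes rose in 11 of 16 with none falling and a median of 0.58, and none was robust to setting; Mvd showed 1.78 ± 0.28. The medians of both lists lie under the 1.36 that marks the 5th percentile of the sensory receptor ratios, so rises of these sizes are smaller than those of genes at background.

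Immunoglobulin genes gave the largest rises, and 1 library stood apart. Jchain, the joining chain made by plasma cells, was read at 58.9, 59.0, 692 and 73.4 CPM in HSC/MPP and 0.938, 1.31, 1.65 and 0.813 CPM in LK. The library of mouse 3 was far above the others, but every HSC/MPP library lay above every LK library. The log2 fold change was 7.55 ± 0.89 with all libraries and 5.74 ± 0.43 without HSC/MPP replicate 3 (adjusted p = 6.83e-08). Ighm, the heavy chain of IgM, was read at 339, 414, 5260 and 544 CPM against 41.8, 40.2, 53.7 and 42.2 CPM, 5.20 ± 0.81 with and 3.28 ± 0.41 without that library. Igkc, the kappa light chain constant gene, was read at 204, 260, 2669 and 282 CPM against 1.25, 2.35, 4.44 and 0.904 CPM, 8.56 ± 0.88 with and 6.77 ± 0.33 without it. In LMPP, Igkc was at 2.74 to 6.28 CPM and Jchain at 5.48 to 21.1 CPM, and HSC/MPP exceeded LMPP by a log2 fold change of 7.66 ± 0.86 for Igkc (adjusted p = 9.27e-05) and 4.47 ± 0.74 for Jchain (adjusted p = 0.00307). In bulk samples, fewer cells of a type and less RNA per cell cannot be told apart, and whether plasma cells were carried over in the sort was not tested.

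Lymphoid priming genes were otherwise near the median of all genes. Of 25 listed 12 passed the filter, 5 rose and 1 fell with a median of 0.36. Dntt, the terminal transferase of early lymphoid progenitors, was at 15.3 to 21.1 CPM against 15.9 to 26.9 CPM and was not called (-0.18 ± 0.32, adjusted p = 0.635). Lck, a kinase of T cells, showed 2.24 ± 0.26 at 4.26 times the uniform background.

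Markers of other cell types were followed as whole lists. Of 17 mature T and NK cell genes 1 passed the filter, Trbc1, and it was not called (0.78 ± 0.40, adjusted p = 0.0874; 0.87 and adjusted p = 0.0464 in the 8 libraries with the mouse as a block). The summed level of the T and NK list was 201 to 270 CPM in HSC/MPP and 40.3 to 77.5 CPM in LK, and 14 of its 17 genes were above background in no HSC/MPP library. Of 16 macrophage genes 5 passed, 2 rose and 1 fell, and the sums were 312 to 350 CPM and 186 to 223 CPM. Of 18 stromal and endothelial genes 6 passed and 5 rose with a median of 1.93, and the sums were 653 to 751 CPM and 127 to 228 CPM. Of the 18 listed, 13 were above background in no LK library. Col1a1, type I collagen, showed 2.24 ± 0.18, Cdh5, VE-cadherin, 2.35 ± 0.23, and Stab2, a sinusoid scavenger receptor, 2.11 ± 0.27, all robust to setting and all within the 1.36 to 2.48 range of the sensory receptor ratios. Robustness to setting therefore does not separate a gene of HSC/MPP from background, and the same holds for stem cell members within that range such as Fgd5 (2.31 ± 0.25), Esam (2.13 ± 0.23) and Prdm16 (2.11 ± 0.21).

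The remaining genes of the 15 largest rises were a mixed group. Meis3, Hhatl, Scnn1b and Rhox4e were above background in 0 LK libraries, so their rises were largely set by the filter. Col4a2 and Pglyrp2 were above it in 1 LK library and Myl10 and Rhox3e in 2, so their rises are not independent of the filter either. Rhox3a2 was above it in 4. None of these genes passed the stricter rule on its own background. Myl10, a myosin light chain gene, was at 24.3 to 32.9 CPM against 2.53 to 4.65 CPM, 3.07 ± 0.21, and was higher still in LMPP at 43.0 to 70.6 CPM. Meis3, a Hox cofactor, showed 2.85 ± 0.25 and Col4a2, a basement membrane collagen, 2.80 ± 0.17. Rhox3e, Rhox4e and Rhox3a2, of the reproductive homeobox cluster on the X chromosome, showed 2.82 ± 0.24, 2.65 ± 0.22 and 2.62 ± 0.25, and are near-identical copies whose reads cannot be assigned with certainty. Pglyrp2 (2.74 ± 0.20), Hhatl (2.69 ± 0.29) and Scnn1b (2.69 ± 0.32) complete the list. Adgrl4, an adhesion receptor of endothelium and stem cells, passed the rule on its own background with 151, 146, 141 and 113 CPM against 84.5, 82.9, 83.2 and 66.1 CPM, 0.80 ± 0.18, and turned without the background filter.

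The same contrast was set beside leukaemia marrow, to see which differences between HSC/MPP and LK differ between the arms. Over 14837 genes tested in 20 marrow libraries of both arms, the fold change of HSC/MPP over LK differed between the arms for 3572 genes (24.1%). With its sign, the log2 fold change was larger in control for 523 genes (3.52%) and smaller in control, meaning a steeper fall or a weaker rise, for 3049 (20.5%). The count larger in control depended on single libraries, at 343 without control LK replicate 1 and 2126 without leukaemia HSC/MPP replicate 4. The 2 arms also differed in the overexpressed microRNA and were deposited as separate tables, and the leukaemia cell types came from different mice. Disease, microRNA and table therefore cannot be told apart. Background was also less even across the groups, at 6.83 to 25.4% of counts in leukaemia HSC/MPP and 0.686 to 7.96% in leukaemia LK, and its part in these differences was not tested.

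All 15 of the largest control falls were less steep or absent in leukaemia, with a called difference, beside 20.5% of all genes called smaller in control. They were chosen as the largest in the same control libraries, so the choice favoured a steeper value in control. None of the 15 largest rises was called. Errors of these differences were often wide, such as 1.02 for Meis3 and 0.97 for Hhatl, so a missing call does not show equal fold changes. With background subtracted Mecom was called, at a difference of 1.70 (adjusted p = 0.0180 by edgeR) against 0.90 ± 0.39 (adjusted p = 0.105) without subtraction. Mpo was read at 1364, 1136, 851 and 1137 CPM in leukaemia HSC/MPP and at 1707, 2100, 2283 and 1621 CPM in leukaemia LK, a log2 fold change of -0.78 ± 0.23 against -6.37 ± 0.30 in control in this fit. The difference, control minus leukaemia, was -5.59 ± 0.35 (adjusted p = 1.06e-08). Ctsg differed by -4.47 ± 0.31, Elane by -5.76 ± 0.76, Cebpa by -2.995 ± 0.32 and Hist1h1b by -2.86 ± 0.41. Leukaemia HSC/MPP held Cebpa at a mean of 84.6 CPM and leukaemia LK at 106 CPM, where control stood at 9.21 and 95.3 CPM. Car1 was low in both leukaemia populations: HSC/MPP and LK had means of 8.29 and 3.09 CPM, where control had 15.8 and 364 CPM, and the leukaemia fold change was 1.41 ± 0.60 (adjusted p = 0.116). The errors of Hlf and Ly6a were wide: Hlf differed by 0.62 ± 0.77 (adjusted p = 0.630), with means of 7.73 CPM in leukaemia HSC/MPP and 1.91 CPM in leukaemia LK against 122 and 20.8 CPM in control, and Ly6a by -0.54 ± 0.61.

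Genes among those with the smallest p in each direction outside these were Atp8b4 and Lgals1, with a smaller signed fold change in control, and Nfatc2, Zfhx3, Epb41l4b and Prr33, with a larger one. Atp8b4, a phospholipid flippase, and Lgals1, galectin 1, had leukaemia fold changes of -0.11 ± 0.17 and -0.05 ± 0.18 against -2.95 ± 0.19 and -2.94 ± 0.21 in control. Nfatc2, a calcium-regulated transcription factor, was read at 69.1, 45.3, 38.2 and 58.3 CPM in leukaemia HSC/MPP and 58.2, 49.2, 69.1 and 55.5 CPM in leukaemia LK, which overlap, while the control fold change was 1.96 ± 0.20. Zfhx3, a large homeobox factor, had control and leukaemia fold changes of 1.54 ± 0.13 and 0.16 ± 0.13. The control rises of these genes lie within the range of the sensory receptor ratios.

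**Figure D5:**
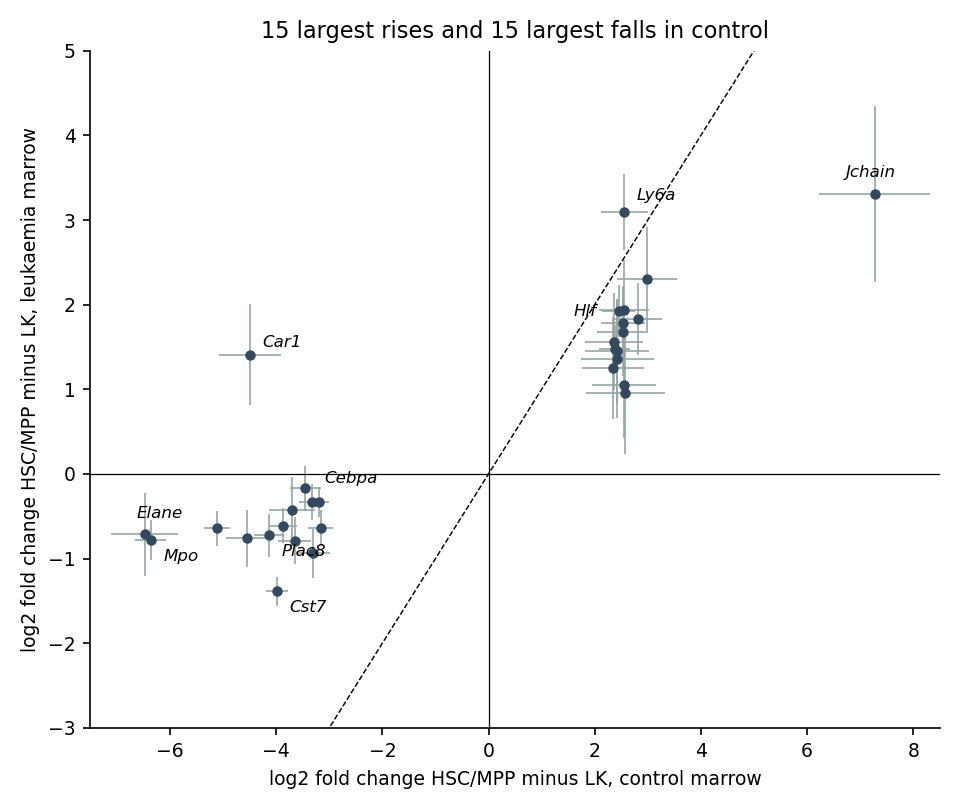
Log2 fold change of HSC/MPP minus LK in control (x axis) and leukaemia marrow (y axis), with standard errors, for the 15 largest rises and 15 largest falls in control; the dashed line marks equal values. The falls lie between -1.38 and 1.41 in leukaemia, far from the line, and the rises lie nearer to it.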

How the data were processed

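RNA-seq of FACS-sorted marrow cells was analysed from gene tables of whole-number counts that the authors deposited; the tables are named as normalised, but each library sums to a different total, so they were taken as raw counts. Per the labels' protocols, the kit was a SMARTer pico-input one for total RNA that marks strand, and the submitters' processing notes name DESeq2 and GRCm39. No aligner, counter or use of strand is stated there, so counts of overlapping, antisense and near-identical genes are uncertain. Symbols and exon lengths came from the GENCODE M21 annotation and covered 52133 of 55414 identifiers; identifiers without a symbol were not used in named lists.

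Background was the median of counts per kilobase over 1518 sensory receptor genes in each library. Genes with at least 10 counts and above 3 times that rate plus 10 counts in at least 4 libraries were tested. edgeR 4.0.16 (R 4.3.3; quasi-likelihood test, TMM scaling, no mouse term) was fitted to the 12 control libraries, which share the spread, with the contrast HSC/MPP minus LK; all p-values were Benjamini-Hochberg adjusted over the genes tested at a threshold of 0.05, and ± after a log2 fold change is its standard error. CPM are counts per 1e+06 of the TMM-scaled library. The difference between control and leukaemia was the interaction in a fit of 20 marrow libraries.

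Named genes were the 15 largest rises and 15 largest falls among called, non-overlapping protein-coding genes with at least 20 CPM in the higher group, all members of the sort and stem cell lists, up to 5 called members of each other list and those whose role is explained, and for the disease difference the 5 smallest p in each direction; some of these genes are not reported here. Members and lists were chosen with earlier results of these data known. Alternatives were no or a stricter background filter, background subtraction, median-of-ratios scaling, DESeq2 1.42.0, limma-trend (limma 3.58.1), the 8 libraries alone, mouse as a block, a minimum fold test and leaving out each library; scaling on well expressed genes, with and without subtraction, and a filter on all 4 libraries of a group were chosen after seeing the data. The test was also run on simulated counts with few changed genes and no difference in background between groups. That setting is unlike these data, so the run does not show how the test behaves on them. Libraries are paired by the mouse in their labels: deviations from the group means of HSC/MPP and LK correlated at 0.13, 0.09, 0.11 and -0.10 in mice 1 to 4. Promoters were those of RefSeq, GRCm38.p6. Total counts per library set the precision, and the lowest was 3.55 M.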

Additional observations from a re-analysis of the deposited data

Results flagged for a closer look

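In groups of 4 libraries a value was listed when its gap to the nearest other, divided by the range of the group, passed Dixon's critical value for that group size. Of 300 groups checked 20 passed, 11 in HSC/MPP and 9 in LK, and chance gives about 1 in 20 groups.

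The immunoglobulin genes of HSC/MPP had the widest gaps in CPM. Replicate 3 was the high library for Jchain (ratio 0.977, 692 against 73.4 CPM in the next), Igkc (0.968, 2669 against 282 CPM) and Ighm (0.959, 5260 against 544 CPM). The LK library of the same mouse was the high one for Ighm (0.853, 53.7 against 42.2 CPM). Pgam1 was the fourth gene with HSC/MPP replicate 3 apart (0.883, 42.7 against 30.3 CPM).

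Other HSC/MPP values were Flt3, high in replicate 1 (0.985, 50.3 against 42.8 CPM), Aqp1, low in replicate 1 (0.931), Myc, low in replicate 4 (0.895, 67.3 against 87.3 CPM), Rps2, low in replicate 4 (0.859), Rhox3a2, low in replicate 2 (0.853), and Gata1, high in replicate 2 (0.84, 31.3 against 24.7 CPM). The total count of HSC/MPP replicate 4 was also apart (0.868, 3.55 M against 8.14 M).

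In LK the values were Adgrl4, low in replicate 4 (0.915), Fgd5, low in replicate 1 (0.885, 6.63 against 13.4 CPM), Gata1, high in replicate 4 (0.875, 62.7 against 46.8 CPM), Col4a2, high in replicate 3 (0.873), Gapdh, low in replicate 2 (0.873), Nkx2-3, high in replicate 3 (0.872), Hbb-bs, high in replicate 2 (0.852), and Mycn, high in replicate 2 (0.837).

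The fold change of HSC/MPP over LK differed between control and leukaemia marrow by the interaction test in 21 named genes, given here as control minus leukaemia on the log2 scale. It was larger in control for Prr33 (2.784), Nfatc2 (2.093), Epb41l4b (1.911) and Zfhx3 (1.374). For the granule and myeloid genes it was smaller in control: Elane (-5.761), Mpo (-5.586), Ctsg (-4.473), Prtn3 (-3.789), Plac8 (-3.407), Ms4a3 (-3.281), Calr (-3.28), Ap3s1 (-3.251), Cebpa (-2.995), Clec12a (-2.873), Cst7 (-2.604) and Rab44 (-2.525). The same direction held for Car1 (-5.905), Lgals1 (-2.894), the linker histones Hist1h1b (-2.864) and Hist1h1a (-2.362), and Atp8b4 (-2.844).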

How the results depend on the processing

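The number of genes called was 18599 without the background filter (8207 higher and 10392 lower), 5190 with a threshold of 5 times the background (2680 and 2510) and 3567 when a fold change above 2 was tested (2329 and 1238), against 8596. Scaling on well expressed genes gave 9362 higher and 623 lower, and 6885 and 1115 with background subtracted. Called list members numbered 541, and 271 with the minimum fold test. The disease difference gave 1861 genes without the background filter, 74 larger and 1787 smaller in control, and DESeq2 gave 937 larger; in these the cause was not tested.

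Leaving out each library in turn gave 7901 to 8388 genes called, 4003 to 4406 higher and 3789 to 3982 lower, 507 to 536 list members, 30 of 30 named genes and 2.70 to 3.04 for the log2 fold change of Ly6a. The disease difference ranged from 2858 to 5324 genes, 343 to 2126 larger and 2515 to 3198 smaller. The call of Txnip, Fcgr2b, Lyz2, Trbc1 or mt-Nd2 changed in at least 1 of these fits, and no other single gene's did.

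With the mouse as a replicate block, the paired fit of 12 libraries gave 4375 higher and 4001 lower, with the call of 144 of 144 single genes kept; the paired fit of the 8 libraries alone added calls for Fcgr2b (0.30), Gata2 (-0.24), Lyz2 (-0.35) and Trbc1 (0.87) and changed no other single call.

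The sign of single log2 fold changes turned in these cases. Without the background filter they were Adgrl4 -0.76, Angpt1 -0.45, Ccnd1 -0.66, Cdkn1b -1.43, Dusp2 -0.42, Eng -1.44, Erg -0.85, Fcgr2b -1.17, Flt3 -1.33, H2-Q7 -0.26, Hbb-bs -0.45, Hoxa10 -0.40, Hoxa9 -0.76, Ifitm3 -0.45, Il1r1 -0.21, Itga2b -0.90, Mcoln1 -0.41, Meis1 -0.0096, Mllt3 -0.46, Nlrc5 -0.34, Ptprc -1.46, Sesn2 -0.43, Slc2a1 -0.13, Tgfbr2 -0.69, Txnip -1.11 and mt-Nd2 -0.87. With scaling on well expressed genes they were Cd34 0.44, Dntt 1.10, Epor 0.51, Fcgr3 0.37, Gata1 0.34, Gata2 1.12, Kit 0.65, Lyz2 0.99, Nfe2 1.26, Psmb8 0.11, Spi1 0.30, Tgfb1 0.051 and mt-Co1 0.65. With background also subtracted they were Cd34 0.14, Dntt 0.73, Epor 0.022, Fcgr3 0.29, Gata1 0.099, Gata2 1.08, Kit 0.59, Lyz2 0.98, Nfe2 1.27, Spi1 0.099 and mt-Co1 0.75. Nfe2 turned to 0.41 with the threshold of 5 times the background and to 0.42 with background subtracted. Subtraction also ended the calls of Kit, Epor and mt-Co1, and DESeq2 that of Txnip. In the disease difference Zfhx3 and Epb41l4b were no longer called without the background filter. Depth limits the low genes of HSC/MPP, which had the fewest counts and the most background.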

Other observations

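Detoxification and metabolic genes outside the lists above also differed. Of 24 efflux and detoxification genes tested 15 fell and 6 rose, with 14 higher and 2 lower under scaling on well expressed genes. Gpx1, a glutathione peroxidase, was at 64.9 to 87.5 CPM in HSC/MPP and 389 to 448 CPM in LK, -2.39 ± 0.22, and Gstm1, a glutathione transferase, at 17.4 to 26.6 CPM against 101 to 132 CPM, -2.33 ± 0.14; these are the 2 robust falls of that list. Of 23 amino acid, serine and tRNA charging genes 17 fell and 3 rose, and under that scaling 3 were lower and 11 higher. Mthfd1, of folate one-carbon metabolism, showed -1.86 ± 0.15 and Slc7a5, a large neutral amino acid transporter, -1.75 ± 0.16. Of 24 lysosome and autophagy genes 11 fell and 7 rose, and under that scaling 1 was lower and 21 higher. Lamp1, a lysosomal membrane protein, was at 28.3 to 31.5 CPM against 98.0 to 112 CPM, while Mcoln1, a lysosomal calcium channel, was at 53.3 to 60.5 CPM against 23.7 to 27.8 CPM, a rise that turned without the background filter.

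Surface and signalling genes split. Among 25 adhesion and niche genes 9 rose and 9 fell; Itga4, integrin alpha 4, showed -1.54 ± 0.17 and Cd44, the hyaluronan receptor, -1.37 ± 0.11, and the robust rises were Esam and Itga9. Among 21 WNT, Notch and TGF-beta genes 7 rose and 3 fell; Ltbp3, which binds latent TGF-beta, showed 2.09 ± 0.15 and Tgfb1 -1.23 ± 0.18, and Tgfb1 turned to 0.051 under scaling on well expressed genes. Among 18 antigen presentation genes 5 rose and 6 fell: Nlrc5, the activator of class I genes, showed 1.22 ± 0.12 and H2-Q7, a class I gene with close copies, 1.31 ± 0.14, and both turned without the background filter, while Psmb8, an immunoproteasome subunit, showed -1.18 ± 0.19 and turned under scaling on well expressed genes. Of 10 p53 targets 3 rose and 2 fell, and of 11 immediate early genes 6 rose and 3 fell; Sesn2 (1.14 ± 0.16) and Dusp2 (1.16 ± 0.17) turned without the background filter. Axl, a receptor of macrophages, showed 1.83 ± 0.21, within the range of the sensory receptor ratios.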
